A study of Caenorhabditis elegans with 10 samples.

Results

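The genes described here are 42 pre-mRNA splicing factors of Caenorhabditis elegans, out of 46536 genes in the deposited table. They were chosen by name: every protein-coding gene whose symbol is snr, lsm, uaf, sfa, sap, prp, mog, teg or rsp followed by a number, of 20112 protein-coding genes in all. The choice by name also takes in lsm-1, whose product belongs to a cytoplasmic ring of mRNA decay. Levels of the 42 were compared between 2 kinds of dissected germline tumour. Worms of the GLP-1 ON group had the ar202 allele of glp-1, and worms of the GLP-1 OFF group had the q175 allele. GLP-1 is the Notch receptor of the germline, ar202 is a gain-of-function allele and q175 a null allele. Both groups also carried gld-2 mutation q497 and gld-1 mutation q485, with which germ cells go on dividing whether or not Notch signals, so both tissues are tumours and neither is a wild-type germline. All worms were of the Bristol strain, grown from synchronised L1 larvae for 48 h at 25 °C and dissected on day 1 of adulthood. Ribosome-depleted total RNA was sequenced from 5 biological replicates of each group, and how many worms went into a library is not given in the sources used here.

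Splicing removes introns from nuclear transcripts through the spliceosome, which is built from small nuclear ribonucleoproteins (snRNPs) and many further proteins. Sm proteins form the ring around U1, U2, U4 and U5 RNA, Lsm proteins the ring on U6 RNA, U2AF and SF1 recognise the end of the intron and the branch site, the U2 snRNP pairs with the branch site, the U4/U6.U5 tri-snRNP brings the catalytic RNA, and DEAH-box helicases drive the remodelling steps. SR proteins bind exons and help to choose splice sites. In the C. elegans germline, splicing factors are known from genetics: the mog genes are needed for the switch from sperm to oocytes, and loss of teg-1, teg-4 or prp-17 enhances the tumours of a weak glp-1 gain-of-function allele.

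The libraries held 17504785 to 38526696 reads in genes in ON and 18733699 to 29319001 in OFF. Levels are the authors' CPM, read counts scaled to the total of each library. Genes for rRNA took 40.13% to 49.6% of the reads in ON and 38.96% to 50.8% in OFF. In CPM, the 9 germline markers, which define this tissue, summed to 1894 to 2611 in ON libraries, against 1844 to 2603 in OFF libraries. Intestinal markers summed to 1.18 to 3.66 in ON libraries, against 1.17 to 9.43 in OFF libraries, muscle markers to 14.8 to 37.4 in ON libraries, against 19.1 to 30.9 in OFF libraries, somatic gonad markers to 25.1 to 35.1 in ON libraries, against 31.3 to 43.9 in OFF libraries, neuronal markers to 22.4 to 30.6 in ON libraries, against 22.6 to 55.4 in OFF libraries and cuticle markers to 1.45 to 2.97 in ON libraries, against 1.30 to 2.25 in OFF libraries. Sperm markers were near 0, at 1.09 to 2.23 in ON libraries, against 0.341 to 0.652 in OFF libraries, with msp-3 at 0 reads in every library. The 1 that was tested, spe-9, was called higher in ON. It met the filter for testing, at least 1 CPM in at least 5 libraries, only through the ON libraries. A call of spe-9 in the other direction was therefore hardly possible. The 4 oocyte markers summed to 167 to 256 in ON libraries, against 249 to 349 in OFF libraries and 2 of the 4 tested were called lower in ON, as were 2 of 8 tested germline, 1 of 5 tested muscle and 1 of 4 tested somatic gonad markers. The part of these shifts in the splicing factor results was not tested. The targeted gene, glp-1, ranged from 206 to 274 in ON libraries and from 69.7 to 101 in OFF libraries.

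Few of the splicing factors were called as different between GLP-1 ON and GLP-1 OFF tumours. Of the 42, 1 was higher and 1 was lower in ON by limma at an adjusted p under 0.05, where 6.7% of all 6833 tested genes were called higher and 12.4% lower, 19.1% in all. The gene that fell was rsp-2, which encodes an SR protein, and the gene that rose was lsm-4, which encodes a ring protein of U6 RNA. All 42 genes passed the filter of at least 1 CPM in at least 5 libraries, and their lowest value in any library was 10.4 CPM (uaf-2 in ON replicate 2). The median log2 difference of the 42, taken between mean log2(CPM + 1) in ON and in OFF, was -0.056, and that of all tested genes was -0.050. The differences ran from -0.48 (rsp-2) to 0.27 (lsm-6), and 30 were below 0 and 12 above, while 59.5% of all tested genes were below 0. In bulk tissue, fewer cells of a type and less RNA per cell cannot be told apart.

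**Figure D1:**
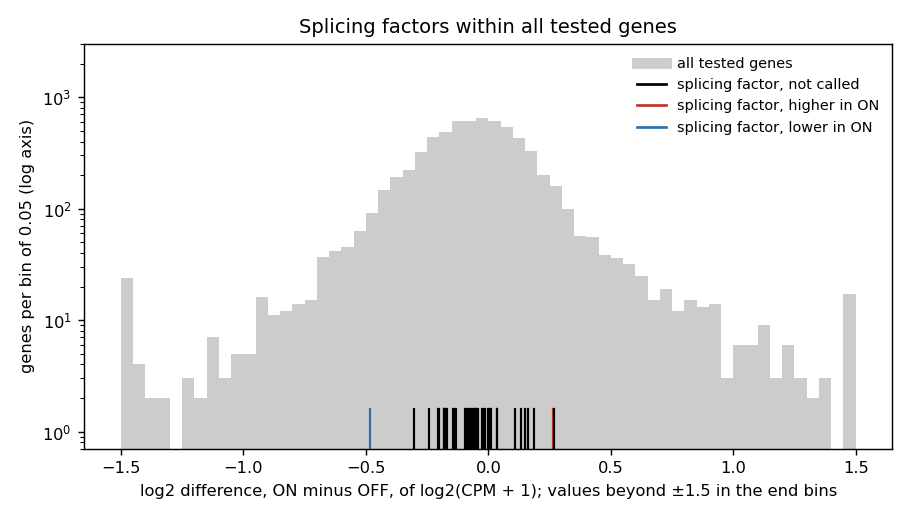
Histogram of the log2 difference between ON and OFF, from log2(CPM + 1), of all 6833 tested genes (grey, log axis of genes per bin), with a tick at the base for each of the 42 splicing factors. The ticks lie between -0.48 and 0.27, within the body of the distribution, with rsp-2 alone at the left and lsm-4 and lsm-6 together at the right.

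The data set bounds on what may have been missed. The 95% interval of the difference lay within 0.5 of 0 on the log2 scale for 40 of the 42, and for 72.9% of all tested genes. The exceptions were rsp-2 and lsm-7. Over the 40 genes that were not called, the bounds reached down to -0.53 (lsm-7) and up to 0.49 (lsm-6), so that fold changes of up to 1.44 down and 1.41 up were not outside these intervals. The standard errors ran from 0.0871 to 0.154. The coefficient of variation between libraries had a median of 7.34% over the 42 in ON and 11.7% in OFF, and of 10.6% and 14.3% over all tested genes in the same groups. After TMM scaling the median over the 42 was 6.37% in ON and 6.68% in OFF, and over all tested genes 8.95% and 8.33%.

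The count of calls depended on library scaling. After TMM scaling, which sets the libraries to a common level of most genes, 4 of the 42 were higher (lsm-4, lsm-6, rsp-4 and prp-19) and 4 lower (rsp-2, snr-2, prp-3 and sap-49), against 16.5% and 18.2% of all tested genes called higher and lower with the same scaling (34.8% in all). In edgeR with TMM scaling, 4 were higher and 5 lower, with prp-4 added to the lower ones (all tested genes 16.8% and 18.1%, 34.9% in all). In DESeq2, 7 were higher (lsm-4, lsm-5, lsm-6, prp-19, rsp-4, snr-5 and uaf-1) and 3 lower (rsp-2, prp-3 and snr-2; all tested genes 19.4% and 17.7%, 37.1% in all). With median-ratio scaling in limma, 5 were higher (lsm-4, lsm-6, prp-19, rsp-4 and uaf-1) and 3 lower (rsp-2, prp-3 and snr-2; all tested genes 17.8% and 16.9%, 34.7% in all), and with rRNA reads removed 2 were higher (lsm-4 and prp-19) and 5 lower (rsp-2, mog-5, prp-3, sap-49 and snr-2; all tested genes 11.4% and 18.6%, 30.1% in all). Under each of these the share of the 42 that was called stayed below the share of all tested genes. Of the calls over all genes, 458 of 1305 were higher without scaling and 1129 of 2376 with TMM. TMM scaling moved the median of all tested genes by 0.041 on the log2 scale, and the median of the splicing factors became -0.013. In 4 of the 42 the CPM of the groups did not overlap: lsm-4 with ON above, and rsp-2, snr-2 and prp-4 with ON below. Groups that do not overlap made up 14.9% of all tested genes, 5.01% with ON above and 9.92% with ON below.

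**Figure D2:**
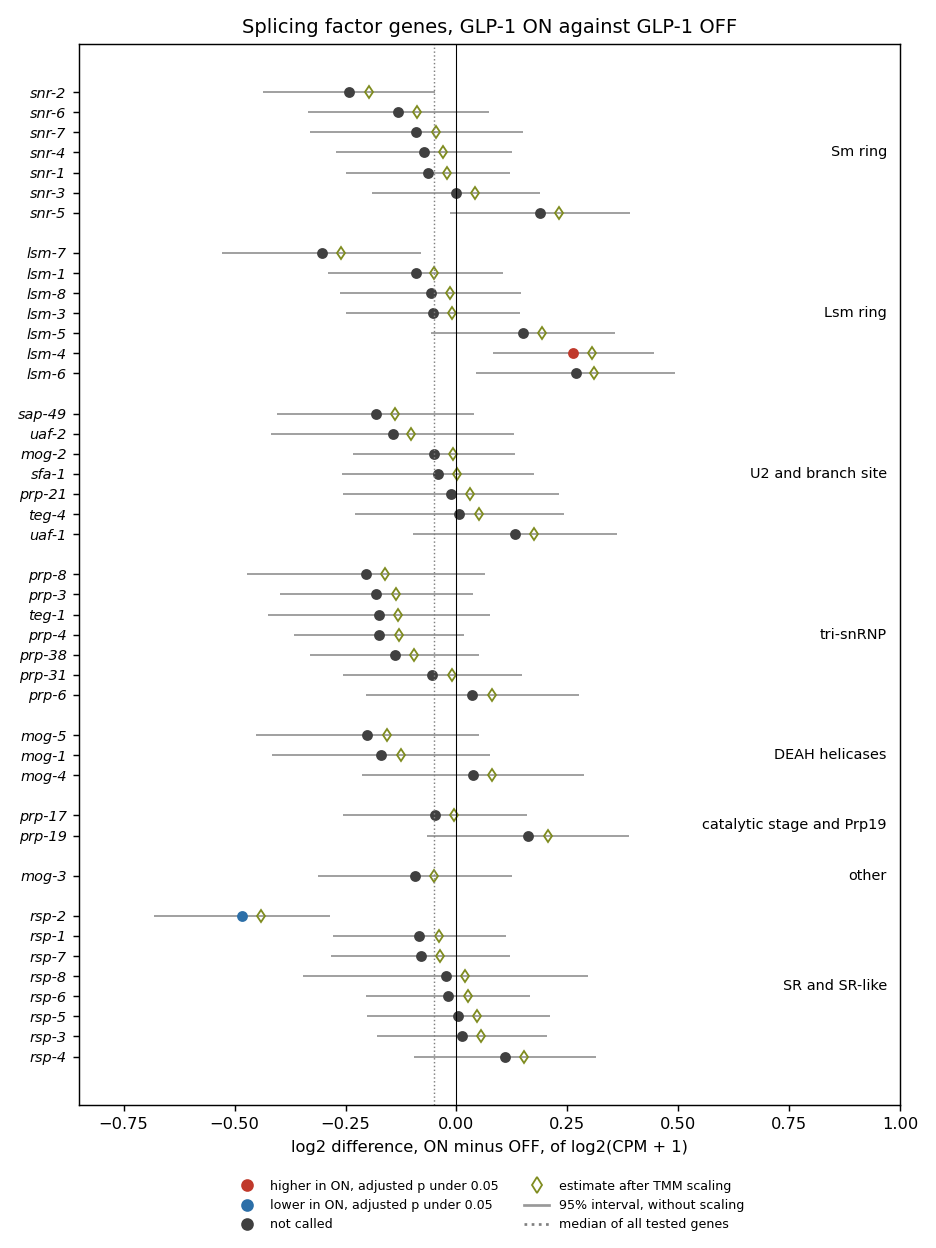
Log2 difference between ON and OFF, from log2(CPM + 1), of each splicing factor with its 95% interval (circles and bars, limma without scaling, n = 5 each) and the estimate after TMM scaling (diamonds), grouped by role, with the median of all tested genes as a dotted line. The interval of rsp-2 ends at -0.29, and most others span 0. TMM estimates lie to the right of the unscaled ones by about the same amount throughout.

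Among the SR and SR-like genes, rsp-2 fell and the other 7 were not called. rsp-2 encodes an RNA-binding protein with arginine-serine repeats and lies on chromosome II, 11451441 to 11452955, minus strand (WBcel235). It had 52.6, 53.2, 52.7, 57.1 and 54.6 CPM in ON replicates 1 to 5, against 68.1, 90.2, 70.1, 79.1 and 74.2 CPM in OFF replicates 1 to 5. Every ON library lay below every OFF library, with ON values close together and OFF values wider apart. The means were 54.04 ± 1.86 in ON tumours, against 76.3 ± 8.83 in OFF tumours (mean CPM ± SD, n = 5 each), a ratio of 0.708. Limma gave a log2 difference of -0.48 (95% interval -0.68 to -0.29, limma adjusted p = 0.000941), and the exact two-sided permutation test gave p = 0.00794, the smallest that 5 libraries against 5 allow. The call was kept in each of the 10 fits that left out 1 library (adjusted p from 0.000308 to 0.00384) and after TMM scaling, where the difference was -0.44 (limma adjusted p = 1.8e-05).

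The neighbour of rsp-2 was not called. rsp-1, another SR gene, starts 406 bases away and is read in the opposite direction (chromosome II, 11453362 to 11455864, plus strand). It had 140.1, 133, 134, 136 and 150.3 CPM in ON replicates 1 to 5, against 131, 159.6, 141, 164 and 141 CPM in OFF replicates 1 to 5. These groups overlap, and limma gave a log2 difference of -0.084 (95% interval -0.28 to 0.11, limma adjusted p = 0.586). The ratio of rsp-2 to rsp-1 within a library, which no scaling alters, was 0.375, 0.401, 0.393, 0.421 and 0.363 in ON replicates 1 to 5, against 0.518, 0.565, 0.498, 0.483 and 0.525 in OFF replicates 1 to 5. This ratio was lower in every ON library than in any OFF library. It was chosen after the values were seen and was not tested. Of the summed CPM of the 8 rsp genes, rsp-2 made up 7.23 ± 0.203% in ON and 9.77 ± 0.410% in OFF (SD, n = 5 each).

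The other SR genes had log2 differences from -0.084 (rsp-1) to 0.11 (rsp-4). rsp-3, the worm SF2/ASF and the most abundant SR transcript per length, was at 241 ± 14.6 in ON tumours, against 239 ± 16.8 in OFF tumours (mean CPM ± SD, n = 5 each), with a log2 difference of 0.012 (95% interval -0.18 to 0.20, limma adjusted p = 0.945). rsp-6, a relative of SRp20, was at 105 ± 2.999 in ON tumours, against 106 ± 7.73 in OFF tumours (mean CPM ± SD, n = 5 each), with a log2 difference of -0.019 (95% interval -0.20 to 0.17, limma adjusted p = 0.915). rsp-4, the worm SC35, was at 54.5 ± 3.86 in ON tumours, against 50.6 ± 5.89 in OFF tumours (mean CPM ± SD, n = 5 each) and was not called (adjusted p = 0.488 in limma), but after TMM scaling its difference was 0.15 (limma adjusted p = 0.0137). rsp-8 varied most between libraries, with 22.04, 19.8, 28.8, 27.6 and 20.3 CPM in ON replicates 1 to 5, against 18.4, 36.97, 26.7, 19.5 and 21.6 CPM in OFF replicates 1 to 5. Its highest library, OFF replicate 2, and its lowest, OFF replicate 1, were both in OFF. rsp-5 and rsp-7 had limma adjusted p-values of 0.984 and 0.614.

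**Figure D3:**
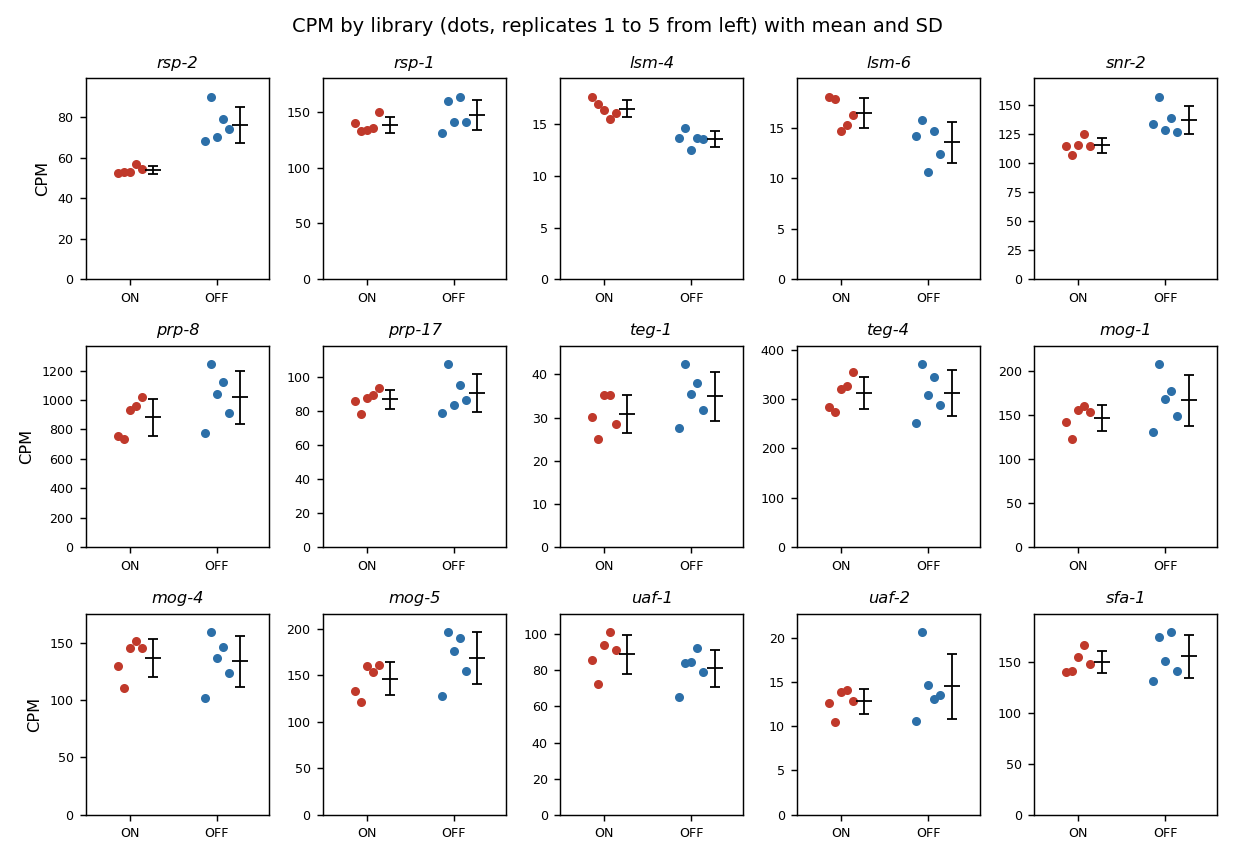
CPM of 15 splicing factors in each of the 5 ON libraries (red) and the 5 OFF libraries (blue), with the mean and SD beside them; each axis starts at 0. The groups are apart for rsp-2, lsm-4 and snr-2 and overlap in the other 12 panels.

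Of the 7 Lsm genes, lsm-4 rose and the other 6 were not called. Lsm4 is one of the subunits shared by the nuclear ring on U6 RNA, which holds Lsm8, and the cytoplasmic ring of mRNA decay, which holds Lsm1. lsm-4 had 17.7, 16.9, 16.4, 15.5 and 16.1 CPM in ON replicates 1 to 5, against 13.7, 14.6, 12.5, 13.6 and 13.6 CPM in OFF replicates 1 to 5. The lowest ON library was above the highest OFF library. Its means were 16.5 ± 0.813 in ON tumours, against 13.6 ± 0.763 in OFF tumours (mean CPM ± SD, n = 5 each), a ratio of 1.21, with a log2 difference of 0.26 (95% interval 0.081 to 0.44, limma adjusted p = 0.0392) and a permutation p of 0.00794 (exact, two-sided). The call was not stable: it was lost in 8 of the 10 fits that left out 1 library, that is, in all but those without ON replicate 4 and without OFF replicate 2. Over the 10 fits the limma adjusted p ran from 0.0109 to 0.127, while the log2 difference of lsm-4 stayed between 0.23 and 0.29. It was also lost without a filter on low values, where more genes are tested, and with the run of consecutive library numbers as a term, where the difference was 0.29 (limma adjusted p = 0.0691). After TMM scaling it was 0.30 (limma adjusted p = 0.0115).

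The reads of lsm-4 also carry a doubt about strand. The gene (chromosome II, 7252232 to 7253163, minus strand) shares 247 exonic bases, 40.6% of its exons, with ada-2 on the other strand. Whether strand was used in counting is not given in the sources used here. ada-2 was at 54.9 ± 3.61 in ON tumours, against 67.9 ± 11.98 in OFF tumours (mean CPM ± SD, n = 5 each), with a log2 difference of -0.29 (limma adjusted p = 0.0753). In all, 14 of the 42 genes share exonic bases with another gene in the annotation. The next largest shares were 12.1% in snr-1 and 8.65% in teg-1, and in the other 11 genes the share was at most 5.84%.

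The remaining Lsm genes lay on both sides of 0. lsm-6 was at 16.5 ± 1.49 in ON tumours, against 13.6 ± 2.04 in OFF tumours (mean CPM ± SD, n = 5 each), with a log2 difference of 0.27 (95% interval 0.045 to 0.49, limma adjusted p = 0.0886), and was called after TMM scaling at 0.31 (limma adjusted p = 0.0361). lsm-7 was at 19.9 ± 2.85 in ON tumours, against 24.7 ± 2.89 in OFF tumours (mean CPM ± SD, n = 5 each), with a log2 difference of -0.30 (95% interval -0.53 to -0.079, limma adjusted p = 0.0537) and, after TMM scaling, -0.26 (limma adjusted p = 0.114). It was called lower in the 2 fits without ON replicate 2 and without OFF replicate 3. lsm-5 was at 28.02 ± 1.61 in ON tumours, against 25.3 ± 3.35 in OFF tumours (mean CPM ± SD, n = 5 each) and was not called (limma adjusted p = 0.322), except in DESeq2 (adjusted p = 0.0449). Of the subunits that tell the rings apart, lsm-8 was at 25.9 ± 2.07 in ON tumours, against 27.1 ± 3.08 in OFF tumours (mean CPM ± SD, n = 5 each) and lsm-1 at 12.9 ± 0.945 in ON tumours, against 13.8 ± 1.36 in OFF tumours (mean CPM ± SD, n = 5 each). Their ratio, lsm-8 over lsm-1, was 1.94, 1.88, 1.91, 2.27 and 2.08 in ON replicates 1 to 5, against 1.99, 1.98, 1.86, 2.03 and 1.95 in OFF replicates 1 to 5, so the groups overlap. lsm-3 had a limma adjusted p of 0.749. The 7 genes summed to 141 ± 8.58 in ON tumours, against 141 ± 14.997 in OFF tumours (CPM, mean ± SD, n = 5 each).

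None of the 7 Sm genes was called without scaling. They summed to 596 ± 14.3 in ON tumours, against 627 ± 51.5 in OFF tumours (CPM, mean ± SD, n = 5 each). snr-2, for SmB, came nearest. It had 114, 107, 116, 125 and 115 CPM in ON replicates 1 to 5, against 134, 157, 128, 138 and 127 CPM in OFF replicates 1 to 5. All ON libraries were below all OFF libraries, and limma gave a log2 difference of -0.24 (95% interval -0.44 to -0.048, limma adjusted p = 0.076), with an exact permutation p of 0.00794 (two-sided). After TMM scaling snr-2 was lower in ON at -0.20 (limma adjusted p = 0.00467). Its partner in the ring, SmD3, is encoded by snr-1, which was at 117 ± 4.37 in ON tumours, against 123 ± 8.54 in OFF tumours (mean CPM ± SD, n = 5 each), with a log2 difference of -0.065 (95% interval -0.25 to 0.12, limma adjusted p = 0.668). The ratio of snr-2 to snr-1 was 1.03, 0.904, 1.02, 1.03 and 0.955 in ON replicates 1 to 5, against 1.101, 1.15, 1.12, 1.12 and 1.08 in OFF replicates 1 to 5. It was below its OFF range in every ON library and, like the other ratios given here, was chosen after the values were seen and not tested.

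For SmD1 and SmD2, which also pair, snr-3 was at 140.1 ± 7.87 in ON tumours, against 140.4 ± 9.80 in OFF tumours (mean CPM ± SD, n = 5 each) and snr-4 at 81.97 ± 4.67 in ON tumours, against 86.5 ± 8.63 in OFF tumours (mean CPM ± SD, n = 5 each). The ratio of snr-3 to snr-4 was 1.87, 1.87, 1.48, 1.74 and 1.62 in ON replicates 1 to 5, against 1.64, 1.56, 1.55, 1.54 and 1.86 in OFF replicates 1 to 5, and the groups overlap. The genes for SmF (snr-5), SmE (snr-6) and SmG (snr-7) had log2 differences of 0.19, -0.13 and -0.091, with limma adjusted p of 0.196, 0.386 and 0.641. Of these, snr-5 was called higher in DESeq2 (adjusted p = 0.0457). Within the Sm ring, 6 differences were below 0 and 1 above without scaling, and 5 and 2 after TMM scaling.

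**Figure D4:**
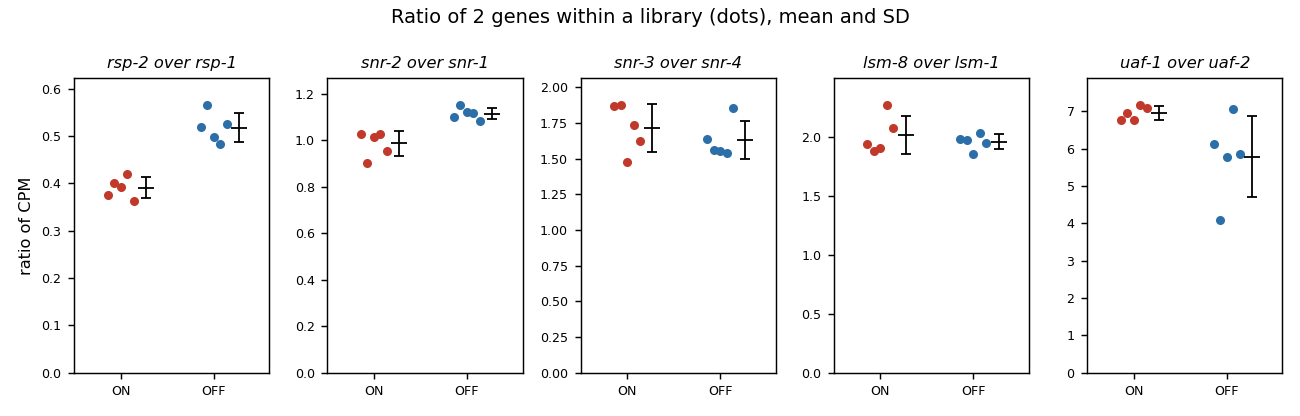
Ratio of the CPM of 2 splicing factors within each library, for the 5 ON (red) and 5 OFF (blue) libraries, with the mean and SD; each axis starts at 0. The groups are apart for rsp-2 over rsp-1 and snr-2 over snr-1, and overlap for snr-3 over snr-4, lsm-8 over lsm-1 and uaf-1 over uaf-2.

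No gene of branch site and U2 recognition was called without scaling. uaf-1, for the large U2AF subunit that binds the pyrimidine tract, had 85.5, 72.6, 93.8, 101 and 91.3 CPM in ON replicates 1 to 5, against 65.2, 84.2, 84.4, 92.4 and 79.3 CPM in OFF replicates 1 to 5. The groups overlap, with a log2 difference of 0.13 (95% interval -0.10 to 0.36, limma adjusted p = 0.447), but uaf-1 was called higher with median-ratio scaling and in DESeq2, where the difference was 0.19 (adjusted p = 0.0395). uaf-2, for the small subunit that reads the AG at the end of the intron, had 12.7, 10.4, 13.8, 14.1 and 12.9 CPM in ON replicates 1 to 5, against 10.6, 20.6, 14.6, 13.1 and 13.6 CPM in OFF replicates 1 to 5. OFF replicate 2 was well above the other 9 libraries, and limma gave a log2 difference of -0.14 (95% interval -0.42 to 0.13, limma adjusted p = 0.492). The ratio of uaf-1 to uaf-2 was 6.76, 6.95, 6.78, 7.16 and 7.09 in ON replicates 1 to 5, against 6.14, 4.09, 5.78, 7.07 and 5.85 in OFF replicates 1 to 5. ON libraries were close together, while OFF libraries ran from 4.09 in replicate 2 to 7.07 in replicate 4. sfa-1, for the branch-point binding protein SF1, had 140.1, 141, 154, 167 and 148 CPM in ON replicates 1 to 5, against 131, 174.5, 151, 179 and 141 CPM in OFF replicates 1 to 5, with a log2 difference of -0.042 (95% interval -0.26 to 0.17, limma adjusted p = 0.825).

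teg-4, which encodes a subunit of the U2 component SF3b and whose loss enhances glp-1 tumours, had nearly the same mean in both groups. It had 284, 275, 321, 325 and 354 CPM in ON replicates 1 to 5, against 250.5, 369.8, 308, 344 and 287 CPM in OFF replicates 1 to 5, with means of 312 ± 32.5 in ON tumours, against 312 ± 46.9 in OFF tumours (mean CPM ± SD, n = 5 each) and a log2 difference of 0.0066 (95% interval -0.23 to 0.24, limma adjusted p = 0.977). sap-49, for another SF3b subunit, was at 62.8 ± 6.75 in ON tumours, against 71.5 ± 9.11 in OFF tumours (mean CPM ± SD, n = 5 each), with an adjusted p of 0.261 in limma, and was called lower in ON after TMM scaling at -0.14 (limma adjusted p = 0.0461). mog-2, which encodes an RNA-associated protein of the U2 snRNP, was at 59.4 ± 0.904 in ON tumours, against 61.7 ± 4.65 in OFF tumours (mean CPM ± SD, n = 5 each) and prp-21, of SF3a, at 98.4 ± 13.5 in ON tumours, against 99.4 ± 14.2 in OFF tumours (mean CPM ± SD, n = 5 each). Neither was called (limma adjusted p = 0.74 and 0.953).

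The 7 tri-snRNP genes were also without a call, and 6 of their 7 differences were below 0 with and without TMM scaling. prp-8, which encodes the large protein at the heart of the spliceosome, had the highest CPM of the 42. It had 757, 734, 934, 961 and 1020.5 CPM in ON replicates 1 to 5, against 778, 1242, 1040.4, 1126 and 914 CPM in OFF replicates 1 to 5. The libraries overlapped widely, and limma gave a log2 difference of -0.20 (95% interval -0.47 to 0.064, limma adjusted p = 0.297). teg-1, which like teg-4 was found through enhanced glp-1 tumours, had 30.04, 24.9, 35.3, 35.2 and 28.6 CPM in ON replicates 1 to 5, against 27.5, 42.3, 35.4, 37.996 and 31.7 CPM in OFF replicates 1 to 5, with a log2 difference of -0.18 (95% interval -0.42 to 0.075, limma adjusted p = 0.341). Again the groups overlap. prp-3, a U4/U6 protein, was at 129 ± 10.8 in ON tumours, against 147 ± 19.3 in OFF tumours (mean CPM ± SD, n = 5 each), with a log2 difference of -0.18 (95% interval -0.40 to 0.037, limma adjusted p = 0.254), and was lower after TMM scaling at -0.14 (limma adjusted p = 0.0263).

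prp-4, also of U4/U6, had 65.6, 64.6, 64.5, 68.2 and 67.7 CPM in ON replicates 1 to 5, against 71.5, 87.1, 68.9, 77.7 and 69.7 CPM in OFF replicates 1 to 5. The groups did not overlap, but only by a narrow gap between 68.2 and 68.9 CPM, and limma gave a log2 difference of -0.17 (95% interval -0.37 to 0.018, limma adjusted p = 0.206). The other members, prp-38, prp-31 and prp-6, had log2 differences of -0.14, -0.054 and 0.036, with limma adjusted p of 0.317, 0.749 and 0.869. The tri-snRNP genes summed to 1479.6 ± 171 in ON tumours, against 1656 ± 253 in OFF tumours (CPM, mean ± SD, n = 5 each), and prp-8 made the largest contribution.

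The 3 DEAH helicase genes, each needed for the sperm to oocyte switch, were not called. mog-1, the worm Prp16, had 142, 123, 156, 161 and 153 CPM in ON replicates 1 to 5, against 130.5, 207, 169, 177 and 149 CPM in OFF replicates 1 to 5. mog-5, the worm Prp22, had 133, 122, 161, 154 and 162 CPM in ON replicates 1 to 5, against 128, 197, 177, 190.3 and 155 CPM in OFF replicates 1 to 5. In both, OFF replicate 2 was highest and the groups overlap. Limma gave a log2 difference of -0.17 (95% interval -0.42 to 0.076, limma adjusted p = 0.347) for mog-1 and a log2 difference of -0.20 (95% interval -0.45 to 0.050, limma adjusted p = 0.272) for mog-5, which was called lower in the fit without OFF replicate 1 (limma adjusted p = 0.0467) and after removal of rRNA reads (limma adjusted p = 0.0484). mog-4, the worm Prp2, had 129.7, 111, 145, 151 and 146 CPM in ON replicates 1 to 5, against 102, 159, 137, 147 and 124 CPM in OFF replicates 1 to 5, with a log2 difference of 0.037 (95% interval -0.21 to 0.29, limma adjusted p = 0.869). The estimate for mog-4 was above 0 and those for mog-1 and mog-5 below it, and no interval of the 3 excludes 0. With the run of library numbers as a term, mog-4 was at -0.015. The sign of mog-4 also turned among the fits that left out 1 library. mog-3, another gene of this genetic class, was at 69.8 ± 4.80 in ON tumours, against 75.1 ± 10.6 in OFF tumours (mean CPM ± SD, n = 5 each, limma adjusted p = 0.588).

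prp-17 and prp-19 act around the catalytic steps. prp-17, whose loss enhances glp-1 tumours, had 85.9, 78.4, 88.1, 89.6 and 93.7 CPM in ON replicates 1 to 5, against 79.2, 108, 83.8, 95.4 and 86.7 CPM in OFF replicates 1 to 5. The values of the groups interleave, with a log2 difference of -0.048 (95% interval -0.26 to 0.16, limma adjusted p = 0.786). prp-19, a ubiquitin ligase that gives its name to a complex of the active spliceosome, was at 182 ± 17.8 in ON tumours, against 163 ± 22.7 in OFF tumours (mean CPM ± SD, n = 5 each). Its difference was 0.16 without scaling (limma adjusted p = 0.334) and 0.21 (limma adjusted p = 0.00922) after TMM scaling, so the call of prp-19 rests on the scaling. Of the 3 genes found through their interaction with glp-1 tumours, prp-17, teg-1 and teg-4, 0 were called by limma, by limma after TMM scaling or by edgeR. The same fits called 19.1%, 34.8% and 34.9% of all tested genes, and 3 genes are too few to set against these shares.

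Per length the splicing factors were well expressed. In CPM per kb of exon, averaged over the 10 libraries, 39 of the 42 were above the median of the 6822 tested genes with an annotated length (22.1 CPM per kb). Of the Sm genes, 5 were at the top, led by snr-3 at 224, snr-2 at 176, snr-5 at 169, snr-1 at 150.5 and snr-4 at 149.6 CPM per kb. rsp-3 and prp-8 followed at 148 and 128. At the other end, rsp-8 was at 20.3, teg-1 at 19.4 and uaf-2 at 13.03 CPM per kb, a 17.2-fold span from top to bottom. Near the top the order is not firm: snr-5 was at 179.5 ± 12.9 in ON and 158 ± 17.3 in OFF CPM per kb, and snr-2 at 161 ± 8.99 in ON and 191 ± 16.99 in OFF (SD, n = 5 each), so their order was not the same in the 2 groups. Likewise, snr-1 was at 147 ± 5.48 in ON and 154 ± 10.7 in OFF CPM per kb and its neighbour snr-4 at 146 ± 8.30 in ON and 154 ± 15.3 in OFF (SD, n = 5 each), closer than the spread of either. The partners in U2AF lay far apart, with uaf-1 at 49.5 CPM per kb.

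The level of the splicing factors also differed between libraries of the same group. OFF replicate 2 was the highest of the 10 libraries for 29 of the 42 genes, while ON replicate 2 was the lowest for 12 and OFF replicate 1 for 12. The summed CPM of the 42 was 4284, 4069, 4621, 4818 and 4794 in ON replicates 1 to 5, against 4101, 5569, 4714, 5138 and 4458 in OFF replicates 1 to 5. The same libraries were high or low over all tested genes: the median deviation from a gene's own mean, on the log2(CPM + 1) scale, was 0.23 for the splicing factors and 0.22 for all tested genes in OFF replicate 2, and -0.13 and -0.13 in ON replicate 2. rRNA took 38.96% of the reads in OFF replicate 2, the least of all, and 50.8% in OFF replicate 1, the most. Without OFF replicate 2, limma called 2 of the 42 higher (lsm-4 and lsm-6), against 9.19% of all tested genes in the same fit, and 1 lower (rsp-2), against 10% of all tested genes (19.2% in all).

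A second pattern went with transcript length. The 9 splicing factors with at least 2000 exonic bases were compared with the 15 under 1000 by their mean log2(CPM + 1), centred on the mean of the 10 libraries. Long minus short was -0.32 in ON replicate 2, -0.34 in OFF replicate 1 and -0.13 in ON replicate 1, and 0.034 to 0.19 in the other 7 libraries. Over all tested genes of these lengths it was -0.23, -0.23 and -0.11 in the same 3 libraries, and 0.0045 to 0.16 in the other 7. Relative to short genes, long genes were thus low in libraries of both groups.

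**Figure D5:**
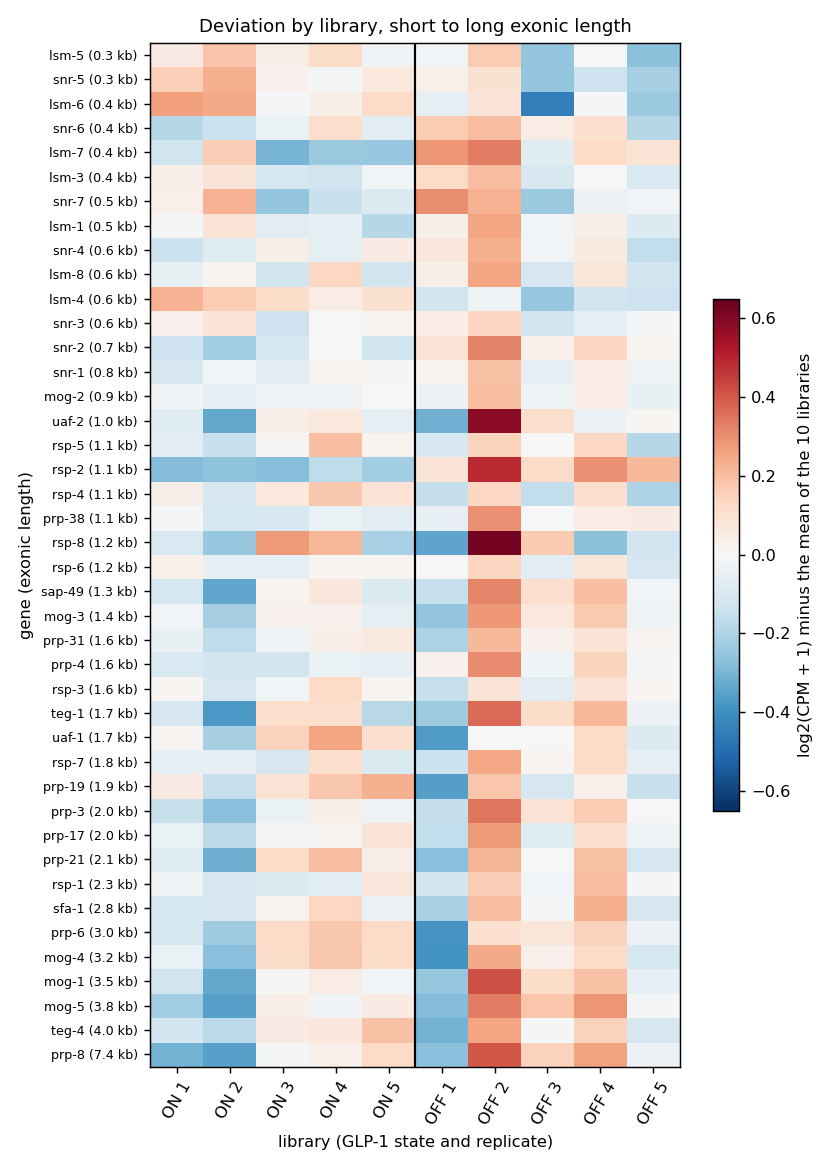
Deviation of log2(CPM + 1) from the mean of the 10 libraries for each splicing factor (rows, sorted from short to long exonic length) in each library (columns, ON left of OFF). The column of OFF replicate 2 is mostly above 0, and the columns of ON replicate 2 and OFF replicate 1 turn, with exceptions, from red at the top to blue at the bottom. The row of rsp-2 is below 0 in all ON libraries and above 0 in all OFF libraries.

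The numbers in the library names fall into 3 runs, 56 to 58, 85 to 88 and 127 to 130, and each run holds both groups. What the runs stand for is not given in the sources used here, and each group has 1 library in at least 1 run. Within the second run, ON replicate 2 against OFF replicates 3 and 4, the difference was below 0 for all 9 long genes (median -0.35) and all 18 of intermediate length (median -0.20), and above 0 for 10 of the 15 short ones (median 0.13). Only within this run did the medians of short and long genes have opposite signs. Within the run 127 to 130 the difference was above 0 for 8 of the 9 long genes (median 0.15). It was also above 0 for 14 of the 18 of intermediate length (median 0.030) and 10 of the 15 short ones (median 0.031). Within the run 56 to 58 it was below 0 for 7 of the 9 long genes (median -0.10). The same held for 14 of the 18 of intermediate length (median -0.11) and 12 of the 15 short ones (median -0.16). Against this, rsp-2 was at -0.57, -0.48 and -0.43 in the 3 runs, lsm-4 at 0.30, 0.35 and 0.22, lsm-6 at 0.26, 0.48 and 0.29 and snr-2 at -0.34, -0.31 and -0.10. prp-8, by contrast, was at -0.38, -0.56 and 0.088, mog-5 at -0.25, -0.59 and 0.038 and lsm-7 at -0.44, 0.14 and -0.35, with a change of sign between runs. With the run as a term in limma, 0 of the 42 were higher (all tested genes 5.21%) and 1 was lower (all tested genes 9.29%, 14.5% in all), which was rsp-2 (difference -0.49, adjusted p = 0.00656).

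Few splicing genes with other names were called. A separate list of 91 further names, of core spliceosome proteins, hnRNP proteins, cap-binding and exon junction proteins and regulators of alternative splicing, gave 81 genes in the table, of which 73 were tested. Limma called 3 higher and 1 lower in ON, and after TMM scaling 10 and 4, against the shares of all genes given above. The median difference was -0.034 on the log2 scale. The 8 genes below the filter were ptb-1, asd-2, fox-1, mbl-1, exc-7, unc-75, sup-12 and mec-8, regulators of tissue-specific splicing known from muscle, neurons and other somatic cells. Not all regulators of alternative splicing in the list were below it. asd-1 was at 10.7 ± 2.54 CPM in ON, against 11.1 ± 1.49 CPM in OFF (SD, n = 5 each). etr-1 was at 43.5 ± 4.82 CPM in ON, against 43.7 ± 5.82 CPM in OFF (SD, n = 5 each).

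The 4 called genes of this list were of different kinds. M28.5, named snu-13 in the gene list and homologous to a protein of the U4 snRNP and box C/D snoRNPs, had 421, 411, 389.6, 396 and 431 CPM in ON replicates 1 to 5, against 320.4, 365, 297, 314 and 307 CPM in OFF replicates 1 to 5. The groups did not overlap, with a log2 difference of 0.35 (limma adjusted p = 0.00891). snrp-40.1, for a U5 snRNP protein, was low but rose to 4.09 ± 0.808 CPM in ON, against 1.63 ± 0.360 CPM in OFF (SD, n = 5 each; limma adjusted p = 1.3e-05). Its paralog snrp-40.2, whose reads may be shared with it, was at 54.8 ± 1.27 in ON tumours, against 60.1 ± 5.88 in OFF tumours (mean CPM ± SD, n = 5 each, limma adjusted p = 0.374). The hnRNP K gene hrpk-1 was at 171 ± 18.2 in ON tumours, against 135 ± 17.5 in OFF tumours (mean CPM ± SD, n = 5 each, limma adjusted p = 0.0301), a call lost in 7 of the 10 fits that left out 1 library and with the run of library numbers as a term (limma adjusted p = 0.124). Its log2 difference without scaling was 0.36, -0.027 and 0.58 in the 3 runs. After TMM scaling of all libraries, hrpk-1 was called higher at 0.39 (limma adjusted p = 0.000111). swp-1, a relative of suppressor-of-white-apricot splicing regulators, fell to 59.9 ± 6.43 CPM in ON, against 81.1 ± 9.35 CPM in OFF (SD, n = 5 each; limma adjusted p = 0.00552).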

How the data were processed

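The authors deposited 1 table of gene values for all 10 libraries, and the deposited signal is CPM. Alignment and counting tools named in the submitters' processing notes are STAR (2.0.4b) and Subread featureCounts (1.4.5), along with edgeR and limma. Neither the build and annotation nor the handling of strand and of multiply matching reads is given in the sources used here. Of 46998 rows, 462 repeated a gene identifier and were removed, leaving 46536 genes. Divided by the smallest value above 0, 100% of the values in each library were whole numbers of reads (tolerance 0.01 read), so that 1 read was worth 0.0260 to 0.0571 CPM. Gene positions and exonic lengths came from the Ensembl annotation of WBcel235 (46363 genes matched by identifier), which says nothing of the authors' build.

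Groups, replicate numbers and columns were taken from the labels. Testing used limma 3.58.1 (R 4.3.3), fitted with a mean-variance trend to log2(CPM + 1) as deposited, for the 6833 genes reaching 1 CPM in 5 or more libraries. P-values are two-sided and adjusted by the Benjamini-Hochberg method over all 6833 genes. Calls required an adjusted p under 0.05. An exact permutation test over all assignments of the libraries was added for single genes. Differences are ON minus OFF. Intervals are at 95% and not adjusted for the number of genes. Alternatives were pseudocounts, filters, TMM scaling, median-ratio scaling, removal of rRNA reads, edgeR 4.0.16 and DESeq2 1.42.0 on the recovered reads, the run of library numbers as a term, the replicate number as a block, and leaving out each library. edgeR without scaling, the run as a term after TMM scaling, and the ratios between genes were added after seeing the data.

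The genes and lists were chosen with earlier results of these data known. Values in all libraries were to be given for called genes, for prp-17, teg-1, teg-4, mog-1, mog-4, mog-5 and prp-8, which have known germline or central roles, and for uaf-1, uaf-2 and sfa-1. Those given for rsp-1, rsp-8, snr-2 and prp-4 were added after their values were seen. The other pathway list held 91 names, of which 8 were not found in the table and 2 repeated a gene already counted. Reads are not independent molecules, since no molecular identifiers were used in these values.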

Additional observations from a re-analysis of the deposited data

Results flagged for a closer look

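Of 84 groups of 5 libraries (42 genes in ON and in OFF), 2 held a library far from the other 4 by Dixon's test, which flags about 1 group in 20 by chance. rsp-7 had 74.1 CPM in ON replicate 4, while the rest of the group spanned 63.4 to 65.9 CPM. prp-38 had 70.5 CPM in OFF replicate 2, while the rest of that group spanned 55.1 to 59.4 CPM. OFF replicate 2 was the highest OFF library for 36 of the 42 genes.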

How the results depend on the processing

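Of the 42 splicing factors, 1 was called higher and 1 lower, and over all tested genes 458 and 847. Pseudocounts of 0.25 and 5 CPM and edgeR without scaling left the counts of splicing factors at 1 and 1. Without a filter on low values, the calls were 0 higher and 1 lower of the 42, and 529 and 723 of all genes. With a filter of 5 CPM, the calls were 1 higher and 1 lower of the 42, and 221 and 623 of all genes. With TMM scaling, the calls were 4 higher and 4 lower of the 42, and 1129 and 1247 of all genes. With median-ratio scaling, the calls were 5 higher and 3 lower of the 42, and 1219 and 1155 of all genes. Without rRNA reads, the calls were 2 higher and 5 lower of the 42, and 780 and 1273 of all genes. In edgeR with TMM scaling, the calls were 4 higher and 5 lower of the 42, and 1145 and 1237 of all genes. In DESeq2, the calls were 7 higher and 3 lower of the 42, and 1323 and 1211 of all genes. With the run of library numbers as a term, the calls were 0 higher and 1 lower of the 42, and 356 and 635 of all genes. With the replicate block, the calls were 2 higher and 2 lower of the 42, and 517 and 1028 of all genes. With the run as a term after TMM scaling, the calls were 6 higher and 4 lower of the 42, and 1012 and 1110 of all genes. Leaving out 1 library gave 0 to 2 higher and 1 to 2 lower of the 42, and 346 to 628 higher and 620 to 1060 lower of all genes. The gene rsp-2 was called lower in ON in 23 of 23 alternatives, with differences from -0.52 to -0.42, and lsm-4 higher in 13 of 23. The median difference of the 42 was below 0 in each fit and ran from -0.088 to -0.0012. The replicate numbers of ON and OFF are not stated to pair libraries, and same-numbered libraries deviated together with correlations of -0.024 to 0.46 (3 of 5 ON libraries correlated best with their own number), so the block (lsm-4 and lsm-6 higher, rsp-2 and lsm-7 lower) is given here only. Apart from rsp-2 and lsm-4, signs of single genes were not compared in edgeR without scaling or with the run as a term after TMM scaling. In the other alternatives, signs turned only for genes never called, whose difference was at most 0.054 in size. With median-ratio scaling, the difference became lsm-3 0.0013, mog-2 0.0048, prp-17 0.0072, prp-21 0.043, prp-31 0.0015, rsp-6 0.037, rsp-8 0.030, sfa-1 0.014 and snr-3 0.054. In DESeq2, the difference became lsm-3 0.0084, mog-2 0.0084, prp-17 0.0090, prp-21 0.045, prp-31 0.0010, rsp-6 0.039, rsp-8 0.013, sfa-1 0.011 and snr-3 0.055. With the run of library numbers as a term, the difference became lsm-3 0.0084, mog-4 -0.015, prp-6 -0.036, rsp-3 -0.014, rsp-5 -0.0031, rsp-6 0.0050, snr-3 0.023 and teg-4 -0.033. With TMM scaling, the difference became prp-21 0.031, rsp-6 0.025, rsp-8 0.019, sfa-1 0.0019 and snr-3 0.042. In edgeR with TMM scaling, the difference became prp-21 0.033, rsp-6 0.026, sfa-1 0.00040 and snr-3 0.043. Without rRNA reads, the difference became snr-3 0.0085. Leaving out 1 library moved mog-4 from -0.055 to 0.11, prp-17 from -0.094 to 0.015, prp-21 from -0.083 to 0.065, prp-6 from -0.056 to 0.10, rsp-3 from -0.024 to 0.041, rsp-5 from -0.045 to 0.042, rsp-6 from -0.048 to 0.015, rsp-8 from -0.11 to 0.13, sfa-1 from -0.10 to 0.011, snr-3 from -0.032 to 0.033 and teg-4 from -0.069 to 0.071. The cause of these shifts was not tested.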

Other observations

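The 42 splicing factors lie on the autosomes. There are 7 on chromosome I, 13 on II, 11 on III, 7 on IV, 4 on V and 0 on X, where 3.09% of the tested genes lie. Some are close neighbours: snr-3 and rsp-5 are 403 bases apart on chromosome II and point away from each other, like rsp-2 and rsp-1, and sfa-1 and uaf-2 lie 5788 bases apart on chromosome IV on the same strand. In the first pair neither gene was called (limma adjusted p = 0.99 for snr-3 and 0.984 for rsp-5).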
